A study of Mus musculus with 6 samples.

Results

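The Wnt ligands and their Frizzled receptors were followed through 6 mouse RNA-seq libraries that compared induced myogenic progenitor cells (iMPCs), which are muscle progenitors made from fibroblasts by direct reprogramming, with satellite cells, which are the resident stem cells of muscle. Genes were taken by symbol: every Wnt gene and every Fzd gene of the deposited table, together with Lrp5 and Lrp6. This gave 31 of 38924 genes, namely 19 Wnt ligands, 10 Frizzled receptors and the 2 Lrp co-receptors. The groups were iMPCs sorted as positive for a nuclear green fluorescent Pax7 reporter (Pax7-nGFP; Pax7+ iMPC, 1 library), iMPCs sorted as negative for it (Pax7- iMPC, 1 library), activated satellite cells (ASC, 1 library), mouse embryonic fibroblasts (MEF, 1 library) and quiescent satellite cells (QSC, 1 library from each of 2 mice, numbered 1 and 3). The ASC library is titled ASCmyo-Pax7-plus-p1, and the labels do not explain the terms myo, Pax7-plus and p1. Per the labels' protocols, expanded iMPC cultures were held without doxycycline in medium with basic FGF and 3 small molecules. Forskolin (5 µM) activates adenylyl cyclase, RepSox (5 µM) blocks signalling by the TGF-beta receptor ALK5, and the GSK3 inhibitor CHIR99021 (3 µM) keeps beta-catenin from being degraded, as a Wnt signal does. The same protocol text stands for every sample. It gives fibroblasts from embryos and from tail tips as the cells reprogrammed. It does not say which of these gave the sorted cultures, whether those were bulk or clonal, or what the ASC and MEF cells were grown in. Both iMPC fractions came from reporter cells, and beyond the ASC title the labels do not say whether the other groups carried the reporter.

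Wnt proteins are secreted, lipid-modified ligands that bind a Frizzled receptor at the cell surface. With Lrp5 or Lrp6 as co-receptor, the signal inactivates the complex that marks beta-catenin for destruction, and beta-catenin then acts with TCF/LEF factors in the nucleus. Without Lrp5 or Lrp6, other ligand and receptor combinations act through planar cell polarity or calcium. In skeletal muscle, Wnt7a acting through Fzd7 is known to drive expansion of satellite cells, and Wnt4 has been described as a ligand that holds satellite cells quiescent.

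The promoters of Fzd4 and Wnt9a are shown because the results turn on both genes: Fzd4 was the most abundant Frizzled mRNA of Pax7+ iMPCs, and Wnt9a the most abundant Wnt mRNA of ASC. Each line holds the 250 bases before the annotated start, 5′ to 3′ on the gene's strand, from RefSeq on GRCm38.p6. Capitals mark E-boxes (CANNTG, the general sequence bound by helix-loop-helix factors, myogenic ones among them) and GC boxes (GGGCGG or CCGCCC, the sequence bound by Sp factors). The Fzd4 window was chr7:89404116-89404365 (+) and the Wnt9a window chr11:59306680-59306929 (+).
Fzd4: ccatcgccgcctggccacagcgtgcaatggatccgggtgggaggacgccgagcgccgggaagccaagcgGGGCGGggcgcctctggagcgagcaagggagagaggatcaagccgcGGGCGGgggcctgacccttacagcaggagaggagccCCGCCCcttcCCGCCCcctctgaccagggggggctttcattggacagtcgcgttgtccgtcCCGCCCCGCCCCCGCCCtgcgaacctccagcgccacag
Wnt9a: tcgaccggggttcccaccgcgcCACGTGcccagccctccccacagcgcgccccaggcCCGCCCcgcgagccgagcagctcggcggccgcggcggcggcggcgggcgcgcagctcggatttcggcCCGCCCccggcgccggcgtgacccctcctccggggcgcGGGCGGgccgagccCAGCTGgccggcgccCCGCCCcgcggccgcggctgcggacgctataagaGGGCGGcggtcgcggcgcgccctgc
The Fzd4 window held 7 GC boxes, of which 2 overlapped another GC box, and 0 E-boxes. The Wnt9a window held 5 GC boxes and 2 E-boxes, CACGTG at position -228 and CAGCTG at position -74 from the start. Of the 31 members, 21 matched a promoter entry by symbol, with 24 entries between them because some have several starts. Of these 24 entries, 18 held a GC box on either strand, 16 an E-box and 3 the TCF/LEF core (CTTTGA or TCAAAG). Across 32851 windows of the same length, 32.7% held a GC box, 66.2% an E-box and 13.8% the TCF/LEF core. Member windows were also richer in G and C, with a median of 71.8% against 52.4% over all windows.

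Library totals ranged from 20859611 to 29279686 counts. Levels are given as RPKM on the TMM scale: counts per kilobase of the gene length implied by the deposited RPKM, scaled to the TMM-adjusted library size as CPM is, where TMM is edgeR's trimmed mean scaling. QSC libraries had TMM factors of 0.717 (mouse 1) and 0.763 (mouse 3), and the other 4 libraries lay between 1.11 and 1.21. The QSC mice differed in Xist (0.0954 CPM in mouse 1 and 530.1 CPM in mouse 3) and in the Y-linked Ddx3y (454.6 and 0.226 CPM), as mice of different sex do. The spread behind every test therefore holds that difference too. ASC held Ddx3y at 85.2 CPM and Xist at 0.0431 CPM. Xist stood at 39.1 CPM in Pax7+ iMPCs, 24.7 in Pax7- iMPCs and 41.9 in MEF, with Ddx3y at 0, 0.135 and 0.112 CPM. The groups thus differed in these genes as well, and the part of sex in differences between groups was not tested. Mouse 1 also held more erythroid marker RNA (1299 CPM summed over 5 genes, against 20.1 CPM in mouse 3) and more endothelial marker RNA (317 against 63.0 CPM over 11 genes). Of the 9 committed muscle markers 8 were higher in mouse 1, among them Myog at 188.9 CPM, against 4.07 CPM in mouse 3, while their sums were 3911 and 3793 CPM. All 10 satellite cell markers were detected in both QSC libraries, at 34.5 CPM or above. In Pax7+ iMPCs Pax7 stood at 37.8 CPM, in Pax7- iMPCs at 6.25 CPM and in ASC at 19.8 CPM, against 34.5 and 159.7 CPM in QSC. The 10 satellite cell markers summed to 2370 CPM in Pax7+ iMPCs, 1216 in Pax7- iMPCs, 1461 in ASC and 382.9 in MEF, against 5285 and 5642 CPM in QSC. In Pax7+ iMPCs 2 of them, Itga7 and Cdh15, lay above both QSC mice and 6 lay below both, Calcr and Chodl being under 1 CPM. Pax7 had 0 counts in MEF, and the 9 committed muscle markers summed to 62.4 CPM there against 17960 CPM in ASC. In bulk samples, fewer cells of a type and less RNA per cell cannot be told apart.

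Against QSC, 4 of the 10 Frizzled receptors rose in each of the 4 other groups, and the ligands changed in both directions. The 4 receptors were not the same throughout: Fzd4 stood in place of Fzd1 in Pax7+ iMPCs. Wnt5a, Fzd2, Fzd6, Fzd7 and Lrp5 rose in every one of the 4 comparisons, and Fzd1 rose in 3 of them. Wnt4 fell in 3, Fzd5 in both iMPC fractions and Wnt11 in Pax7+ iMPCs. Fzd4 was the one member called in both directions, higher in Pax7+ iMPCs and lower in ASC. Tests were two-sided quasi-likelihood F tests in edgeR, adjusted by Benjamini-Hochberg over 17116 genes, with calls at 0.05. Each lone library was assumed to vary as much as the QSC pair. Of the 31 members, 24 passed the expression filter and were tested, 14 were called at least once, and 10 were called in no comparison. How many of all genes were called at least once, in all 4 comparisons or in both directions was not counted. These member counts across comparisons therefore have no background beside them.

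In Pax7+ iMPCs 6 of the 24 tested members rose and 3 fell, against 11.3% and 9.31% of all genes. In Pax7- iMPCs 8 rose and 1 fell, against 12.1% and 6.57% of all genes. ASC had 8 up and 2 down, against 11.8% and 8.24% of all genes. MEF had 9 up and 1 down, against 11.3% and 8.03% of all genes. The share of members called up thus lay above the share of all genes in each comparison, and the share called down lay near it. A filter on low counts keeps genes through the group in which they are high, so these counts describe the tested members only. The 4 comparisons share the QSC libraries and are not independent of each other. Without TMM, on library totals alone, the median log2 fold change of all genes became 0.60 in Pax7+ iMPCs, 0.86 in Pax7- iMPCs, 0.59 in ASC and 0.61 in MEF, where TMM gave -0.03, 0.15, 0.00 and 0.00. Under that scaling the calls were 5 up and 1 down, 7 up and 0 down, 8 up and 0 down, and 8 up and 0 down in the same order of groups, so that of the decreases only that of Wnt11 in Pax7+ iMPCs kept its call.

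**Figure D1:**
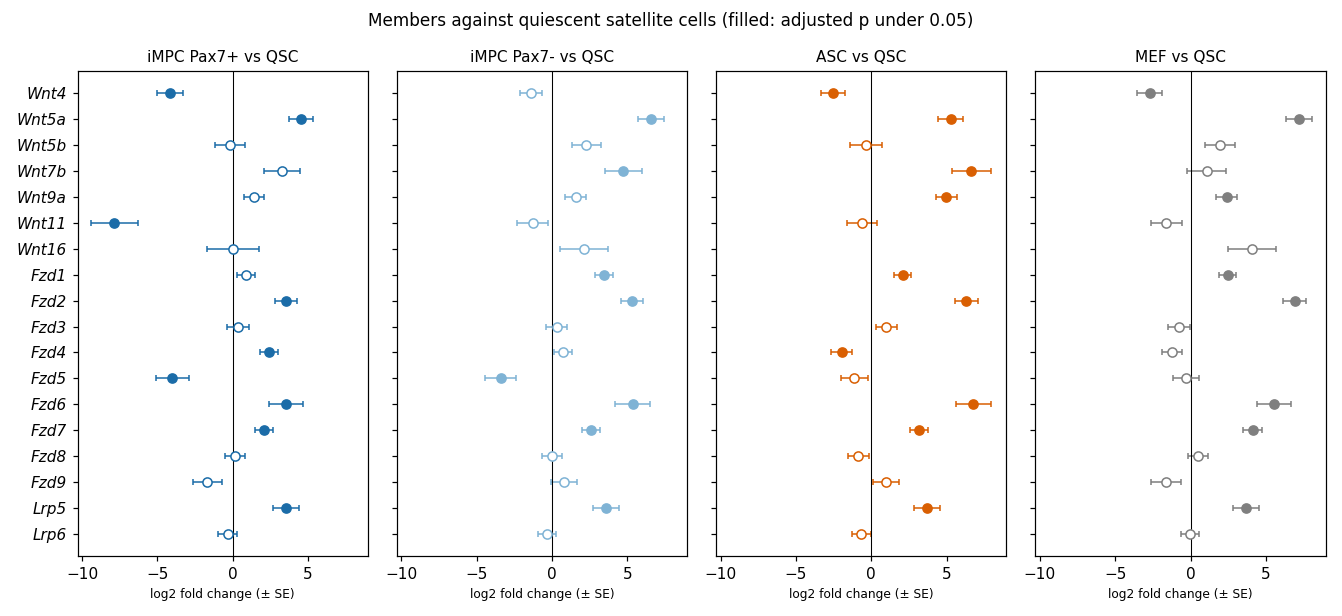
Log2 fold change of each named member against QSC (x axis, edgeR estimate ± SE), 1 panel for each of the 4 groups; filled points had an adjusted p under 0.05. Wnt2, with 0 counts in QSC, and Wnt16 in ASC, with 0 counts there, are left out. Wnt5a, Fzd2, Fzd6, Fzd7 and Lrp5 are filled and right of 0 in all panels, while Fzd4 is filled right of 0 for Pax7+ iMPCs and left of 0 for ASC.

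Among the ligands, 3 had 0 counts in every library: Wnt3a, Wnt8a and Wnt8b. Another 8 Wnt genes (Wnt1, Wnt2b, Wnt3, Wnt6, Wnt7a, Wnt9b, Wnt10a and Wnt10b) and Fzd10 stayed under 1 RPKM throughout. The highest level among these low genes was 0.692 RPKM, for Wnt6 in QSC mouse 1, and the highest count was 34, for Wnt2b in Pax7- iMPCs. Wnt7a, the ligand tied to satellite cell expansion, had 4 counts in Pax7- iMPCs, 1 in MEF and 0 in the other 4 libraries. A count of 0 allows up to 0.116 RPKM of Wnt7a in QSC mouse 1 and 0.110 RPKM in mouse 3. Wnt10b was called up in MEF (31 counts, against 0 in both QSC libraries; at least 16.6-fold against 3 counts over the QSC pair; edgeR adjusted p = 0.0461). That call was lost under library size scaling (edgeR adjusted p = 0.0716) and under DESeq2-style size factors (edgeR adjusted p = 0.0557). It was also absent with a minimum of 5 CPM in 1 library, where Wnt10b was not tested, and with DESeq2, which gave no adjusted p.

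Wnt5a (ENSMUSG00000021994), the ligand best known for signalling outside the beta-catenin branch, was the leading Wnt of both iMPC fractions and of MEF. It stood at 3.40 RPKM in Pax7+ iMPCs, 13.9 in Pax7- iMPCs, 5.64 in ASC and 21.6 in MEF, against 0.0286 and 0.262 RPKM in QSC of mouse 1 and mouse 3. All 4 groups lay above both QSC mice. The log2 fold change was 4.53 ± 0.82 (SE) in Pax7+ iMPCs (edgeR adjusted p = 0.00105), 6.56 ± 0.87 in Pax7- iMPCs, 5.26 ± 0.83 in ASC and 7.20 ± 0.88 in MEF. QSC of mouse 1 held 3 counts and QSC of mouse 3 held 29, so the size of the fold depends on the mouse: for Pax7+ iMPCs the log2 difference was 6.27 against mouse 1 alone and 3.62 against mouse 3 alone, and for MEF 8.93 and 6.28.

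Wnt2 and Wnt5b were highest in Pax7- iMPCs and MEF. Wnt2, a ligand of mesenchymal cells, had 114 counts (1.93 RPKM) in Pax7- iMPCs and 156 counts (2.92 RPKM) in MEF, but 2 counts in Pax7+ iMPCs, 5 in ASC and 0 in both QSC libraries. Against a floor of 3 counts over the QSC pair it was at least 55.3-fold higher in Pax7- iMPCs (edgeR adjusted p = 0.00369) and at least 83.7-fold higher in MEF (edgeR adjusted p = 0.00223). Wnt5b stood at 4.39 RPKM in Pax7- iMPCs and 3.53 in MEF, and at 0.800 in Pax7+ iMPCs, 0.708 in ASC, and 0.995 and 0.823 RPKM in QSC. Its log2 fold change of 2.27 ± 0.97 (SE) in Pax7- iMPCs missed the threshold (edgeR adjusted p = 0.113), as did 1.96 ± 0.97 in MEF (edgeR adjusted p = 0.166). Summed over 10 genes, the fibroblast markers were also highest in MEF and Pax7- iMPCs. They reached 2234 CPM in Pax7+ iMPCs, 8371 in Pax7- iMPCs, 735 in ASC and 16310 in MEF, against 1099 and 729 CPM in QSC. Col1a1 alone held 8924 CPM of the MEF sum, and 5 of the 10 markers were higher in Pax7- iMPCs than in MEF. All 10 were lower in Pax7+ than in Pax7- iMPCs, and their part in the Wnt levels was not tested.

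Wnt4 (ENSMUSG00000036856) and Wnt11 were the most abundant Wnt mRNAs of QSC. Wnt4 stood at 0.583 RPKM in Pax7+ iMPCs, 4.04 in Pax7- iMPCs, 1.79 in ASC and 1.60 in MEF, against 7.04 and 14.0 RPKM in QSC, so every other library lay below both mice. The log2 fold change was -4.17 ± 0.89 (SE) in Pax7+ iMPCs (edgeR adjusted p = 0.0034), -2.56 ± 0.80 in ASC (edgeR adjusted p = 0.032) and -2.72 ± 0.81 in MEF (edgeR adjusted p = 0.0254). In Pax7- iMPCs it was -1.38 ± 0.75 and not called (edgeR adjusted p = 0.207). Under library size scaling all 3 calls were lost, with edgeR adjusted p = 0.0502 in Pax7+ iMPCs, 0.141 in ASC and 0.129 in MEF. Mouse 1 had a Wnt4 level 0.502 times that of mouse 3 (95% counting interval 0.455 to 0.553).

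Wnt11, a ligand of planar cell polarity signalling, was nearly absent from Pax7+ iMPCs. They held 2 counts (0.0369 RPKM), whereas Pax7- iMPCs were at 3.79 RPKM, ASC at 6.07 and MEF at 3.04, against 15.7 and 2.77 RPKM in QSC of mouse 1 and mouse 3. Wnt11 fell in Pax7+ iMPCs (edgeR adjusted p = 0.00212): the count ratio to the QSC pair was 0.00406, with a 95% counting interval of 0.000491 to 0.0147. The log2 difference was -7.60 against mouse 1 alone and -5.11 against mouse 3 alone. The other 3 libraries lay between the QSC mice, and none passed the test. The mice differed by 5.68-fold in Wnt11 (counting interval 4.61 to 7.04), with mouse 1 higher.

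Wnt9a and Wnt7b were highest in the activated satellite cells. Wnt9a (ENSMUSG00000000126) reached 25.3 RPKM in ASC, and 2.13 RPKM in Pax7+ iMPCs, 2.38 in Pax7- iMPCs and 4.20 in MEF, against 0.977 and 0.627 RPKM in QSC. It rose in ASC, with a log2 fold change of 4.98 ± 0.71 (SE, edgeR adjusted p = 0.000101), and in MEF, with 2.39 ± 0.67 (edgeR adjusted p = 0.0188). Both iMPC fractions lay above both mice without passing the test (1.41 ± 0.68 and 1.57 ± 0.67). In RefSeq, Wnt9a has Wnt3a as its direct neighbour on chromosome 11, and Wnt3a had 0 counts in ASC as in all libraries.

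Wnt7b stood at 0.599 RPKM in Pax7+ iMPCs, 1.65 in Pax7- iMPCs, 6.16 in ASC and 0.128 in MEF, against 0.123 RPKM in QSC of mouse 1 and 0 counts in mouse 3. It rose in Pax7- iMPCs (4.74 ± 1.23 SE, edgeR adjusted p = 0.0127) and in ASC (6.63 ± 1.29, edgeR adjusted p = 0.00157). Library size scaling ended the first of these calls (edgeR adjusted p = 0.057). In Pax7+ iMPCs the difference of 3.27 ± 1.22 was not called (edgeR adjusted p = 0.0669), and it was called without the expression filter (edgeR adjusted p = 0.0146). Against mouse 1 alone the log2 difference of ASC was 5.41, and against mouse 3 alone, with its 0 counts, ASC was at least 159-fold higher (floor of 3 counts in that library). ASC also held the most committed muscle marker RNA, with all 9 markers above Pax7+ iMPCs. Of these markers, 7 lay above both QSC mice in ASC and 0 below both. Myh3, for example, stood at 4413 CPM in ASC, against 2.8 and 1.1 CPM in QSC. The part of these markers in the Wnt7b and Wnt9a levels was not tested.

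Wnt16 was highest in MEF. It had 114 counts (2.69 RPKM) in MEF, 33 in Pax7- iMPCs, 8 in Pax7+ iMPCs and 0 in ASC, against 0 counts in QSC of mouse 1 and 11 in mouse 3. Its log2 fold change of 4.06 ± 1.58 (SE) in MEF missed the threshold (edgeR adjusted p = 0.081) and passed it when no expression filter was applied (edgeR adjusted p = 0.0292) and in a fit of MEF and QSC alone (edgeR adjusted p = 0.0491).

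**Figure D2:**
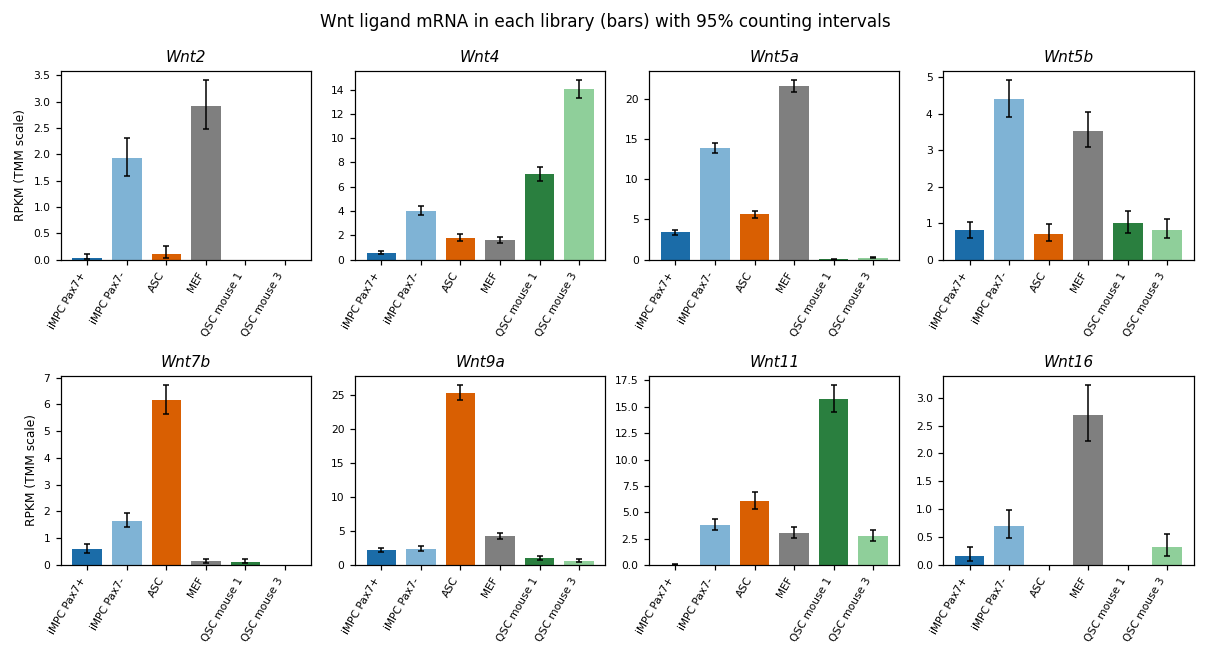
Level of 8 Wnt ligands (y axis, RPKM on the TMM scale, linear from 0) in each of the 6 libraries; bars are single libraries and whiskers are 95% counting intervals, which cover counting error only. Wnt4 is highest in the QSC libraries, Wnt7b and Wnt9a in ASC, Wnt5a in MEF, and Wnt11 is at 0.0369 RPKM in Pax7+ iMPCs against 15.7 and 2.77 RPKM in QSC.

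On the receptor side, Fzd1, Fzd2, Fzd6 and Fzd7 were lower in both QSC libraries than in every other library. Fzd2, which shares ancestry with Fzd1 and Fzd7, stood at 2.21 RPKM in Pax7+ iMPCs, 7.66 in Pax7- iMPCs, 15.0 in ASC and 22.9 in MEF, against 0.0920 and 0.287 RPKM in QSC. Its log2 fold changes were 3.53 ± 0.71 (SE), 5.32 ± 0.74, 6.29 ± 0.76 and 6.90 ± 0.78, with edgeR adjusted p = 0.00239 for the smallest of them. Every library outside QSC held at least 249 counts of Fzd2, while the QSC libraries held 7 and 23. Against mouse 1 alone the log2 difference of Pax7+ iMPCs was 4.30, and against mouse 3 alone 2.86.

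Fzd7, the receptor through which Wnt7a acts on satellite cells, stood at 6.33 RPKM in Pax7+ iMPCs, 9.13 in Pax7- iMPCs, 13.5 in ASC and 26.0 in MEF, against 1.86 and 1.15 RPKM in QSC. It rose in all 4, by log2 fold changes of 2.07 ± 0.60 (SE, edgeR adjusted p = 0.0216), 2.60 ± 0.60, 3.16 ± 0.61 and 4.11 ± 0.62. The mice differed by 1.63-fold (counting interval 1.28 to 2.07), and against either alone the 4 differences stayed between 1.76 and 4.49.

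Fzd6 stood at 0.679 RPKM in Pax7+ iMPCs, 2.39 in Pax7- iMPCs, 6.45 in ASC and 2.78 in MEF, against 0.117 RPKM in QSC of mouse 1 and 0 counts in mouse 3. The log2 fold changes were 3.53 ± 1.11 (SE, edgeR adjusted p = 0.0327), 5.34 ± 1.13, 6.77 ± 1.17 and 5.56 ± 1.14. Against mouse 1 alone they came to 2.36, 4.15, 5.57 and 4.36. Of the QSC mice, Fzd6 and Wnt7b were both detected in mouse 1 only. In that mouse 8 of 9 committed muscle, 11 of 11 endothelial, 5 of 5 erythroid and 8 of 10 immune markers were higher. In contrast, 6 of 10 satellite cell and 7 of 10 fibroblast markers were lower there. The part of these markers, and of the sex difference between the mice, in the QSC counts was not tested. The call in Pax7+ iMPCs, the group with the fewest Fzd6 counts outside QSC at 86, was lost in 3 alternatives: library size scaling (edgeR adjusted p = 0.084), a minimum of 5 CPM in 1 library (0.0598) and a fit of the 2 groups alone (0.1).

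Fzd1 was the most abundant Frizzled mRNA of the reporter-negative fraction. It stood at 7.80 RPKM in Pax7+ iMPCs, 45.8 in Pax7- iMPCs, 17.7 in ASC and 23.0 in MEF, against 5.21 and 3.18 RPKM in QSC. It rose in Pax7- iMPCs (3.45 ± 0.60 SE, edgeR adjusted p = 0.000733), in ASC (2.07 ± 0.59, edgeR adjusted p = 0.0191) and in MEF (2.46 ± 0.59, edgeR adjusted p = 0.00737). In Pax7+ iMPCs the difference was 0.89 ± 0.60 and not called (edgeR adjusted p = 0.301). Mouse 1 was higher than mouse 3 by 1.64-fold, so each of these differences was 0.71 smaller against mouse 1 alone than against mouse 3 alone.

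Fzd4 (ENSMUSG00000049791), the receptor shared by Wnt ligands and the unrelated ligand Norrin, was highest in Pax7+ iMPCs. It stood at 38.4 RPKM in Pax7+ iMPCs, 12.0 in Pax7- iMPCs, 1.85 in ASC and 3.06 in MEF, against 7.61 and 6.84 RPKM in QSC. The QSC mice agreed within counting error (ratio 1.11, counting interval 0.99 to 1.25). Fzd4 rose in Pax7+ iMPCs by a log2 fold change of 2.41 ± 0.59 (SE, edgeR adjusted p = 0.00798), with 2.33 against mouse 1 alone and 2.49 against mouse 3 alone. It fell in ASC by 1.97 ± 0.68 on the log2 scale, at the edge of the threshold (edgeR adjusted p = 0.049). The ASC call was lost without the expression filter (edgeR adjusted p = 0.05), under library size scaling (0.147) and in a fit of the 2 groups alone (0.0645). Pax7- iMPCs and MEF were not called (edgeR adjusted p = 0.41 and 0.189).

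The Fzd4 partners Tspan12 and Ndp were read beside it. Tspan12, a tetraspanin that enhances Norrin signalling through Fzd4, stood at 80.7 RPKM in Pax7+ iMPCs, 34.9 in Pax7- iMPCs, 40.9 in ASC and 4.68 in MEF, against 26.0 and 38.6 RPKM in QSC. It was highest in the same library as Fzd4, although its difference in Pax7+ iMPCs missed the threshold (1.32 ± 0.58 SE, edgeR adjusted p = 0.118) and only its fall in MEF was called (-2.79 ± 0.70, edgeR adjusted p = 0.01), a call lost under library size scaling (edgeR adjusted p = 0.0706). Ndp, which encodes Norrin, stayed at or below 0.557 RPKM in all libraries, and no difference was called.

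Fzd5 ran the other way. It stood at 0.136 RPKM in Pax7+ iMPCs, 0.207 in Pax7- iMPCs, 1.01 in ASC and 1.75 in MEF, against 2.92 and 1.47 RPKM in QSC. It fell in Pax7+ iMPCs by 4.01 ± 1.08 (SE) on the log2 scale (edgeR adjusted p = 0.0142) and in Pax7- iMPCs by 3.40 ± 1.04 (edgeR adjusted p = 0.0293). Against mouse 1 alone these differences were -4.31 and -3.75, and against mouse 3 alone -3.33 and -2.76. Both calls were lost under library size scaling, with edgeR adjusted p = 0.0756 and 0.109.

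Fzd3, Fzd8 and Fzd9 were expressed without a call in any comparison. Fzd8 stood at 6.86 RPKM in Pax7+ iMPCs, 6.13 in Pax7- iMPCs, 3.41 in ASC and 8.60 in MEF, against 6.73 and 5.61 RPKM in QSC, and Fzd3 ranged from 1.88 RPKM in MEF to 6.44 in ASC, against 3.44 and 3.05 RPKM in QSC. Their estimates carried SEs of 0.66 to 0.74, so differences of this size could not be resolved. Fzd9 stood at 1.02 RPKM in Pax7+ iMPCs, 5.76 in Pax7- iMPCs, 6.44 in ASC and 1.06 in MEF, against 4.87 and 1.74 RPKM in QSC. For Fzd9 the QSC mice themselves differed by 2.80-fold (counting interval 2.19 to 3.63).

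Of the co-receptors that Wnt ligands need for the beta-catenin branch, Lrp5 rose in all 4 comparisons and Lrp6 was called in none; the difference between the genes was not tested. Lrp5 (ENSMUSG00000024913) stood at 3.63 RPKM in Pax7+ iMPCs, 3.77 in Pax7- iMPCs, 3.99 in ASC and 3.96 in MEF, against 0.0932 and 0.522 RPKM in QSC. The 4 groups lay within a narrow band and all above both mice. The log2 fold changes ran from 3.55 ± 0.86 (SE, edgeR adjusted p = 0.00767) in Pax7+ iMPCs to 3.69 ± 0.86 in ASC. The QSC mice held 10 and 59 counts of Lrp5, and the difference of Pax7+ iMPCs was 5.07 against mouse 1 alone and 2.76 against mouse 3 alone. Lrp6 stood at 5.38 RPKM in Pax7+ iMPCs, 5.35 in Pax7- iMPCs, 4.35 in ASC and 6.73 in MEF, against 6.35 and 7.32 RPKM in QSC, with no call in any comparison. Lrp5 made up 40.3% of the summed Lrp5 and Lrp6 level in Pax7+ iMPCs, 41.3% in Pax7- iMPCs, 47.9% in ASC and 37.0% in MEF, against 1.45% and 6.66% in QSC.

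**Figure D3:**
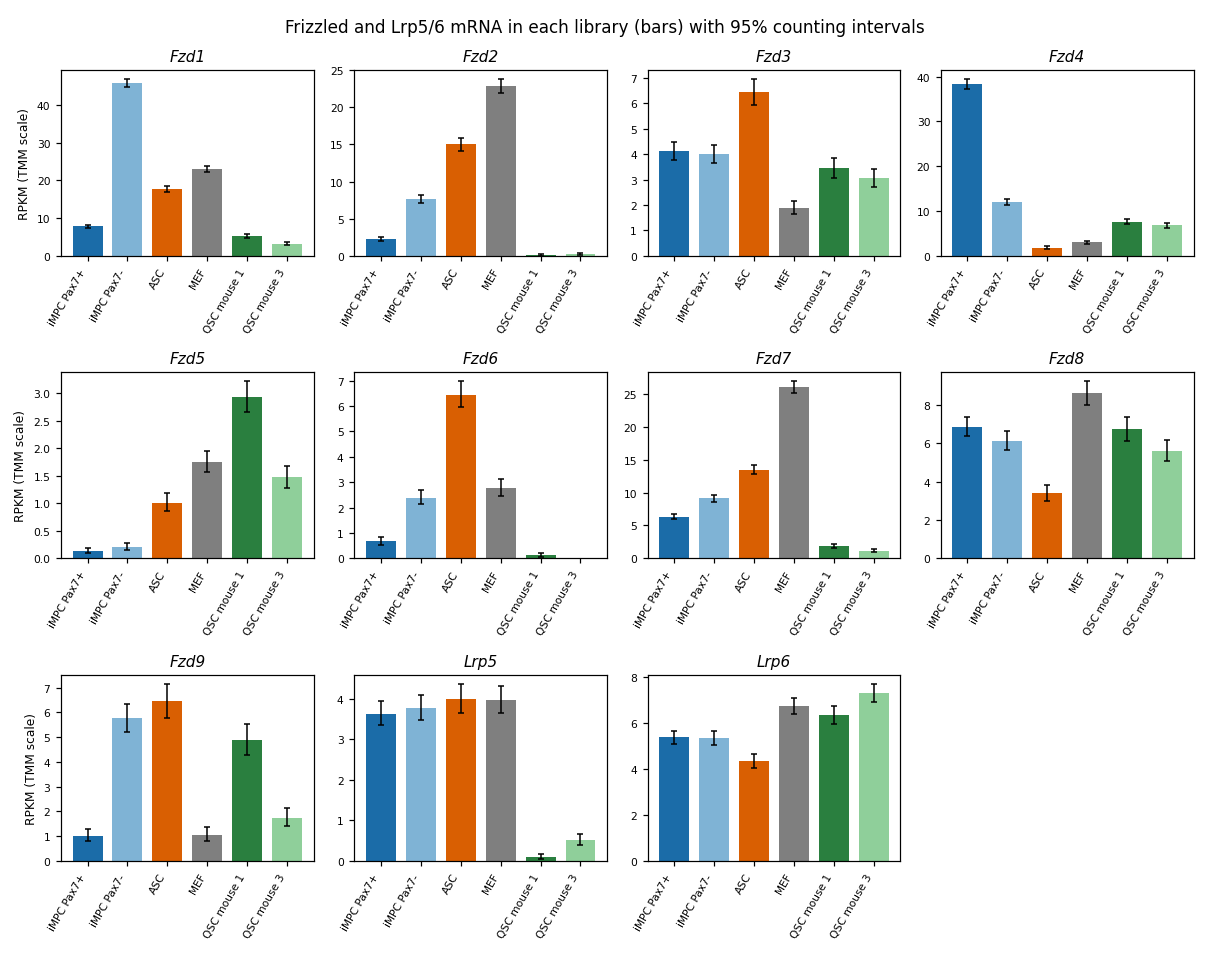
Level of 9 Frizzled receptors, Lrp5 and Lrp6 (y axis, RPKM on the TMM scale, linear from 0) in each of the 6 libraries; bars are single libraries and whiskers are 95% counting intervals. Fzd4 peaks in Pax7+ iMPCs at 38.4 RPKM, Fzd1 in Pax7- iMPCs at 45.8 RPKM, and Lrp5 stands near 4 RPKM outside QSC but at 0.0932 and 0.522 RPKM in QSC.

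The leading receptor and ligand differed between libraries. Summed over the family, Frizzled mRNA came to 67.6 RPKM in Pax7+ iMPCs, 93.1 in Pax7- iMPCs, 71.9 in ASC and 91.1 in MEF, against 32.8 and 23.4 RPKM in QSC. Fzd4 made up 56.8% of it in Pax7+ iMPCs, 12.9% in Pax7- iMPCs, 2.57% in ASC and 3.36% in MEF, against 23.2% and 29.3% in QSC. Fzd1 led in Pax7- iMPCs with 49.2% and in ASC with 24.6%, and Fzd7 led in MEF with 28.5%. In both QSC libraries Fzd4 and Fzd8 came first and second. Fzd4 was the leading Frizzled of Pax7+ iMPCs and of both QSC libraries, at a level 5.32-fold that of the QSC pair (counting interval 4.99 to 5.69).

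Summed Wnt mRNA came to 7.98 RPKM in Pax7+ iMPCs, 33.7 in Pax7- iMPCs, 46.6 in ASC and 40.9 in MEF, against 26.1 and 19.7 RPKM in QSC. Pax7+ iMPCs had the lowest sum of the 6 libraries. Wnt5a made up 42.6% of it in Pax7+ iMPCs, 41.1% in Pax7- iMPCs, 12.1% in ASC and 52.7% in MEF, against 0.109% and 1.33% in QSC. Wnt9a led in ASC with 54.2%. The QSC mice differed in their leading ligand, with Wnt11 at 60.2% in mouse 1 and Wnt4 at 71.3% in mouse 3.

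**Figure D4:**
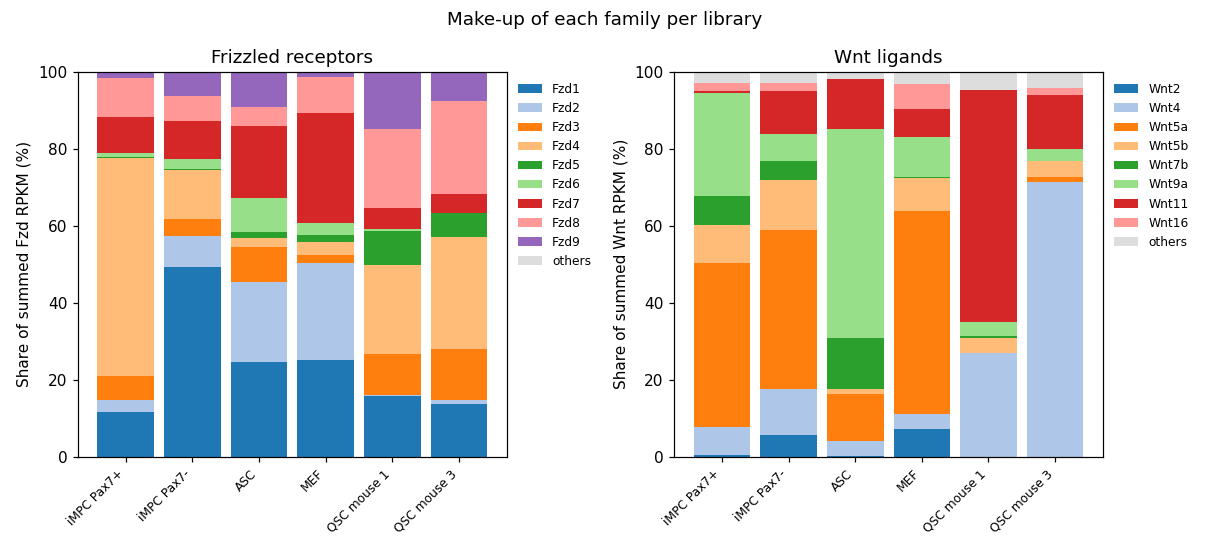
Share of each gene in the summed RPKM of its family (y axis, percent) in each library, for Frizzled receptors on the left and Wnt ligands on the right; genes under 5% in every library are pooled as others. Fzd4 fills 56.8% of the Pax7+ iMPC bar, Fzd1 49.2% of the Pax7- iMPC bar and Wnt9a 54.2% of the ASC bar.

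The sorted iMPC fractions were compared with each other to see how the family is divided by the Pax7 reporter. With 1 library each there is no replicate check and no p-value. Members were counted by size, at least 4-fold on log2 CPM with at least 1 CPM in the higher library, and intervals cover counting error only. Of 20 members over the minimum, 0 were higher and 8 were lower in Pax7+ iMPCs, against 0.363% and 9.14% of all genes over the minimum. The 8 were Wnt2, Wnt2b, Wnt4, Wnt5a, Wnt5b, Wnt11, Fzd1 and Fzd9. The widest gap was that of Wnt11, with 2 and 196 counts in Pax7+ and Pax7- iMPCs (ratio 0.00972, counting interval 0.00117 to 0.0356). Fzd1 had a ratio of 0.17 (0.159 to 0.182) and Wnt4 of 0.144 (0.112 to 0.184). Fzd4 went against this pattern, with a ratio of 3.19 (3.00 to 3.40) that fell short of 4-fold. Lrp5, Lrp6, Fzd3 and Wnt9a had ratios between 0.896 and 1.03, with intervals that included 1. The difference in fibroblast markers between the fractions, given above with Wnt2 and Wnt5b, stands beside these ratios, and all 11 endothelial markers were also lower in Pax7+ iMPCs (19.5 against 81.0 CPM summed). Kdr and Cldn5 were at 0 in Pax7+ iMPCs. Of the committed muscle markers 7 of 9 were lower in Pax7+ iMPCs (4873 against 6645 CPM summed), as were 7 of 9 pericyte and smooth muscle markers (894 against 1550 CPM). The part of these lists was not tested.

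Against ASC, Pax7+ iMPCs had 1 member higher and 7 lower of 17 over the minimum, against 4.88% and 9.51% of all genes. Fzd4 was the higher one, with a ratio of 20.8 (counting interval 17.7 to 24.5). The lower ones were Wnt7b, Wnt9a, Wnt11, Fzd2, Fzd5, Fzd6 and Fzd9. Wnt9a had a ratio of 0.0845 (0.0732 to 0.0972) and Fzd6 one of 0.105 (0.083 to 0.132). Pax7+ iMPCs and ASC also differed in Xist and Ddx3y, as given above, and the part of sex was not tested. All 9 committed muscle markers were lower in Pax7+ iMPCs than in ASC, at 4873 against 17960 CPM summed, and all 10 fibroblast markers were higher, at 2234 against 735 CPM. The part of these lists was not tested.

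Against MEF, the cell type of origin named first in the protocols, Pax7+ iMPCs had 2 members higher and 10 lower of 20, against 6.2% and 10.8% of all genes. Fzd4 was higher (ratio 12.5, counting interval 11.2 to 14.1), as was Wnt7b (4.66, 2.50 to 9.49). The lower members were Wnt2, Wnt5a, Wnt5b, Wnt10b, Wnt11, Wnt16, Fzd2, Fzd5, Fzd6 and Fzd7. Pax7- iMPCs had 2 members higher and 1 lower of 21 than MEF, shares near those of all genes, which were 9.3% and 4.51%. These were Wnt7b (ratio 12.9, counting interval 7.18 to 25.4) and Fzd9 (5.44, 4.17 to 7.18) on the higher side and Fzd5 (0.118, 0.0836 to 0.164) on the lower. The difference between the counts of the fractions was not tested. Summed fibroblast markers were 2234 CPM in Pax7+ iMPCs and 8371 CPM in Pax7- iMPCs, against 16310 CPM in MEF. By gene, all 10 were lower in Pax7+ iMPCs than in MEF, whereas in Pax7- iMPCs 5 were higher and 5 lower. The part of these markers in the counts of members was not tested.

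The rest of the pathway was read from 8 lists with 50 genes found and tested. In Pax7+ iMPCs 9 rose and 3 fell, in Pax7- iMPCs 15 and 3, in ASC 10 and 1, and in MEF 13 and 5. The median log2 fold changes of the 50 genes were 0.40, 0.83, 0.45 and 1.31 in that order, where all genes had -0.03, 0.15, 0.00 and 0.00. The shares of all genes called are those given above for the same comparisons, and they stand beside the counts of each list below as well. The lists held 2 to 10 tested genes each, and their counts were not tested against those shares. Under library size scaling the splits were 10 up and 1 down, 14 and 1, 10 and 1, and 14 and 1, where the decrease that kept its call in each comparison was that of Ror1.

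Among alternative Wnt receptors, Ror1, a receptor tyrosine kinase for Wnt5a, stood at 0.514 RPKM in Pax7+ iMPCs, 1.17 in Pax7- iMPCs, 0.314 in ASC and 1.25 in MEF, against 35.5 and 44.7 RPKM in QSC. Ror1 fell in all 4 comparisons, and in all of the alternatives tried, by 6.28 ± 0.85 (SE) on the log2 scale in Pax7+ iMPCs (edgeR adjusted p = 0.000108), so the QSC libraries, low in Wnt5a itself, were the ones high in Ror1. Ror2, its paralog, rose in Pax7- iMPCs (3.87 ± 0.72, edgeR adjusted p = 0.00127) and in MEF (4.79 ± 0.74, edgeR adjusted p = 0.000258), the groups with the most Wnt5a. Ptk7, a receptor-like protein of planar cell polarity, stood at 60.8 RPKM in Pax7+ iMPCs, 52.9 in Pax7- iMPCs, 48.2 in ASC and 58.7 in MEF, against 1.38 and 1.55 RPKM in QSC, and rose in all 4 by 5.04 to 5.37 on the log2 scale. Of the 6 genes of this list 2 rose and 1 fell in Pax7+ iMPCs, 3 and 1 in Pax7- iMPCs, 1 and 1 in ASC, and 3 and 1 in MEF.

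Among regulators of receptor turnover, Lgr5, a receptor for R-spondins that is itself a Wnt target in other tissues, stood at 14.8 RPKM in Pax7+ iMPCs and 3.78 in Pax7- iMPCs, with 0.377 in ASC and 1.09 in MEF, against 0.220 and 0.275 RPKM in QSC. It rose in both iMPC fractions, by 5.90 ± 0.78 (SE, edgeR adjusted p = 9.79e-05) and 3.92 ± 0.74 (edgeR adjusted p = 0.00147). In MEF its difference of 2.13 ± 0.74 just missed the threshold (edgeR adjusted p = 0.0503) and passed it under library size scaling (0.0448) and without the expression filter (0.0322). Its paralog Lgr6 was highest in ASC at 10.1 RPKM and rose there by 7.39 ± 1.26 (edgeR adjusted p = 0.000535). QSC held 7 and 0 counts of it, and against mouse 1 alone the ASC difference was 6.11. Lgr6 also rose in MEF (4.77 ± 1.19, edgeR adjusted p = 0.00949) and in Pax7- iMPCs (3.61 ± 1.19, edgeR adjusted p = 0.0424). Library size scaling ended both of these calls (edgeR adjusted p = 0.0534 and 0.0822). The Pax7- iMPC call was also lost with a minimum of 5 CPM, DESeq2-style size factors and a fit of the 2 groups alone. Among the ligands of these receptors, Rspo4 was called in Pax7- iMPCs alone (3.26 RPKM, at least 111-fold above 3 counts over the QSC pair, edgeR adjusted p = 0.00224). Rspo2 rose in MEF (8.71 RPKM, at least 416-fold) and in Pax7- iMPCs (0.234 RPKM, at least 11.2-fold, edgeR adjusted p = 0.00992). Both had 0 counts in QSC. Rspo3 rose in MEF to 7.82 RPKM (edgeR adjusted p = 0.000933), against 0.12 and 0.0189 RPKM in QSC. It also rose to 1.1 RPKM in Pax7+ and Pax7- iMPCs (edgeR adjusted p = 0.0216 and 0.025). Those calls, and that of Rspo2 in Pax7- iMPCs, were lost in a fit of the 2 groups alone. Rspo1 reached 4.39 RPKM in Pax7- iMPCs, uncalled (edgeR adjusted p = 0.203). Of the 9 genes, 2 rose in Pax7+ iMPCs, 5 rose and 1 fell in Pax7- iMPCs, 1 rose in ASC, and 3 rose and 1 fell in MEF.

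For secretion, Wls, the carrier that brings Wnt proteins to the cell surface, stood at 40.8 RPKM in Pax7+ iMPCs, 43.4 in Pax7- iMPCs, 136 in ASC and 93.8 in MEF, against 31.8 and 29.6 RPKM in QSC, and rose in ASC (2.15 ± 0.57 SE, edgeR adjusted p = 0.0134). In MEF the Wls difference of 1.61 ± 0.57 was not called (edgeR adjusted p = 0.0579), and 4 alternatives called it, with adjusted p between 0.0365 and 0.045. Porcn, the enzyme that attaches the lipid to Wnt proteins, fell in Pax7+ iMPCs (-2.50 ± 0.84, edgeR adjusted p = 0.0428) and in MEF (-2.75 ± 0.85, edgeR adjusted p = 0.0309). Notum, which removes that lipid, rose in Pax7- iMPCs (4.76 ± 1.14, edgeR adjusted p = 0.00768) to 7.97 RPKM, against 0.474 and 0.112 RPKM in QSC. Both Porcn calls were lost under library size scaling, with edgeR adjusted p = 0.144 in Pax7+ iMPCs and 0.115 in MEF.

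Inside the cell, the 7 genes of the beta-catenin destruction complex gave 0 calls in all 4 comparisons with edgeR. Of all genes, 11.3% to 12.1% were called up and 6.57% to 9.31% down in these comparisons, so few calls would stand among 7 genes at those shares. At an unadjusted p under 0.05 there were 0 in Pax7+ iMPCs, Pax7- iMPCs and ASC and 1 in MEF, and DESeq2 called the same numbers after adjustment. The gene DESeq2 called in MEF was Csnk1a1, and edgeR without the expression filter called Apc2 there (adjusted p = 0.0268), as did a fit of the 2 groups alone (0.0323). Axin2, a member of the complex and a widely used Wnt target gene, stayed low, at 0.131 RPKM in Pax7+ iMPCs, 0.552 in Pax7- iMPCs, 0.718 in ASC and 0.951 in MEF, against 0.150 and 0.242 RPKM in QSC. Of the 10 beta-catenin and TCF/LEF genes, Lef1, a nuclear partner of beta-catenin, rose in all 4 groups: it stood at 2.46 RPKM in Pax7+ iMPCs, 3.38 in Pax7- iMPCs, 3.55 in ASC and 0.595 in MEF, against 0.0421 and 0.0133 RPKM in QSC. Its log2 fold change was 6.41 ± 1.12 (SE) in Pax7+ iMPCs (edgeR adjusted p = 0.000818). Tcf7 fell in MEF (-2.82 ± 0.89, edgeR adjusted p = 0.0332), and Bcl9l, a coactivator of beta-catenin, rose there (2.75 ± 0.71, edgeR adjusted p = 0.012). The Tcf7 call was lost under library size scaling (edgeR adjusted p = 0.115), and that of Lef1 in MEF in a fit of the 2 groups alone (edgeR adjusted p = 0.0597). In ASC 2 genes of the list rose, Lef1 and Ctnnbip1, which encodes an inhibitor of the binding of beta-catenin to TCF (1.80 ± 0.62, edgeR adjusted p = 0.0482). The Ctnnbip1 call was lost with DESeq2 (adjusted p = 0.065), with its size factors in edgeR (0.0682) and with a minimum of 5 CPM (0.0623). Of the 3 Dishevelled genes, which relay the signal from Frizzled, Dvl3 rose in all 4 comparisons by 1.89 to 2.87, and Dvl1 fell in Pax7- iMPCs (-2.07 ± 0.67, edgeR adjusted p = 0.0388). The Dvl1 call was lost under library size scaling (edgeR adjusted p = 0.155), and that of Dvl3 in Pax7- iMPCs with DESeq2-style size factors (edgeR adjusted p = 0.0503) and in a fit of the 2 groups alone (0.0547). In Pax7+ iMPCs Dvl1 was not called (-1.85 ± 0.66, edgeR adjusted p = 0.056), but it was with a minimum of 5 CPM (0.0408) and with DESeq2 (0.0121).

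Of the 10 planar cell polarity genes, 3 rose and 1 fell in Pax7+ iMPCs, and 4 rose in each of the other groups. Vangl1, a membrane protein at the core of the pathway, stood at 5.36 RPKM in Pax7+ iMPCs, 10.8 in Pax7- iMPCs, 6.51 in ASC and 11.9 in MEF, against 0.476 and 0.873 RPKM in QSC, and rose by 2.99 to 4.13 on the log2 scale. Prickle1, its cytoplasmic partner, rose in all 4 by 2.66 to 4.53. Daam2, a formin that links Dishevelled to the actin skeleton, rose in Pax7- iMPCs, ASC and MEF by 3.62, 5.22 and 4.87. Under library size scaling Daam2 kept its call in ASC and lost it in Pax7- iMPCs (edgeR adjusted p = 0.0782) and in MEF (edgeR adjusted p = 0.0515). In Pax7- iMPCs it was also lost with a minimum of 5 CPM (0.0543) and in a fit of the 2 groups alone (0.0635). Scrib, a scaffold protein of cell polarity, also rose in all 4, by 1.74 to 3.69, with its MEF call lost in 3 alternatives: DESeq2-style size factors (edgeR adjusted p = 0.0564), a minimum of 5 CPM in 1 library (0.0532) and a fit of the 2 groups alone (0.0546). Daam1, the paralog of Daam2, was the gene that fell in Pax7+ iMPCs, at the threshold (-2.05 ± 0.71, edgeR adjusted p = 0.04998), and 3 alternatives ended that call.

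**Figure D5:**
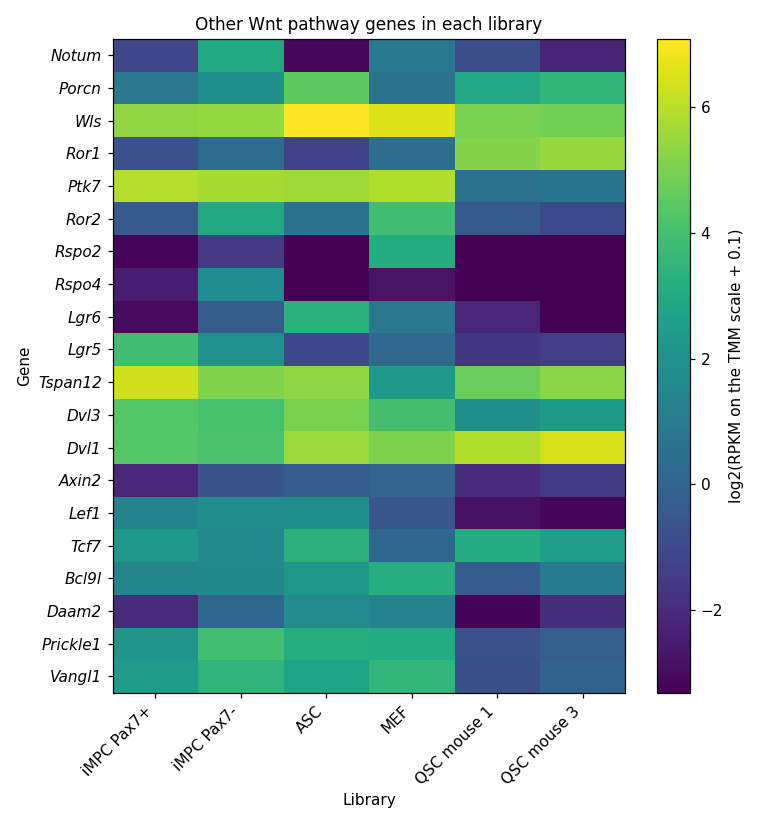
Heat map of 20 other Wnt pathway genes (rows) in the 6 libraries (columns); colour is log2 of RPKM on the TMM scale plus 0.1. Ror1 is bright in the QSC columns alone, Ptk7 is darker there than in the other 4, and Lgr5 is brightest in the Pax7+ iMPC column.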

How the data were processed

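Poly(A)-selected RNA was sequenced from 6 libraries in 5 groups, with 2 QSC mice and 1 library in each other group. The authors deposited raw counts per gene and RPKM values. The tools listed in the submitters' processing notes are HTSeq (0.6.0), STAR (2.3.0), edgeR and Picard (1.100), and the build is mm9. No source used here gives their roles, the annotation or the strand setting of counting, so reads of overlapping antisense genes could not be separated. Deposited RPKM values, per the file headers, supplied gene lengths and the naming rule: members at 1 RPKM or more in any library are given with values. Of each pathway list, the 3 called genes with the largest fold changes are named, with Axin2 and Lgr5. Ctnnbip1, Scrib, Daam1, Apc2, Csnk1a1, Rspo1 and Rspo3 were named after their values were seen.

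Counts were fitted in edgeR 4.0.16 (R 4.3.3, limma 3.58.1) with TMM scaling, a filter on low counts by group and a coefficient for each group, over 17116 genes. There was 1 residual degree of freedom, a common dispersion of 0.227 and a biological coefficient of variation of 0.476. The prior on the spread, fitted over all genes, carried 16.3 degrees of freedom. P-values therefore reflect mostly the spread of the QSC pair as fitted over all genes, and only in small part each gene's own difference between the mice. Pairs of single libraries were compared by size alone, on log2 CPM with a prior count of 2. Intervals are exact 95% counting intervals. Floors are 3 counts. DESeq2 1.42.0, other scalings, filters and fits were alternatives, and those for pathway genes were added after the data were seen. Scripts were tested on simulated data. The members and gene lists were chosen with earlier results of these data known.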

Additional observations from a re-analysis of the deposited data

How the results depend on the processing

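No paired analysis was possible because only QSC had more than 1 library. Under 6 other settings the counts of members called were 6 to 10 in Pax7+ iMPCs (9 as reported), 7 to 9 in Pax7- iMPCs (9), 8 to 10 in ASC (10) and 8 to 11 in MEF (10). Counts of members past 4-fold against QSC were 11 to 12, 10 to 14, 8 to 9 and 12 to 14 in the same order when 1 QSC mouse was left out, and 11, 11, 9 and 11 with both. Between single libraries, other scalings, prior count and minimum gave 6 to 9 members past 4-fold for Pax7+ against Pax7- iMPCs, 8 for Pax7+ iMPCs against ASC, 9 to 12 for Pax7+ iMPCs against MEF and 3 to 4 for Pax7- iMPCs against MEF. Some uncalled estimates changed sign. With library size scaling these were Wnt5b at 0.49 and Lrp6 at 0.33 in Pax7+ iMPCs, Fzd8 at 0.71 and Lrp6 at 0.36 in Pax7- iMPCs, Wnt5b at 0.23 and Wnt11 at 0.01 in ASC, and Fzd5 at 0.32 and Lrp6 at 0.61 in MEF. Wnt16 in Pax7+ iMPCs was at -0.03 with DESeq2-style size factors and with DESeq2. Without the expression filter Fzd8 was at 0.05 in Pax7- iMPCs and Lrp6 at 0.04 in MEF; the cause was not tested. Leaving out a QSC mouse also changed signs, and not only near 0. Against mouse 3 alone, the uncalled Wnt11 difference went from -1.29 to 0.45 in Pax7- iMPCs. It went from -0.61 to 1.12 in ASC and from -1.60 to 0.13 in MEF. No called member changed direction under the settings tried. Depth limits Wnt5a, Wnt7b, Fzd2, Fzd6 and Lrp5 in QSC, where a mouse held as few as 0 to 10 counts. It also limits pathway genes, given here as counts in mouse 1 and mouse 3. These were Lef1 (3 and 1), Lgr6 (7 and 0), Rspo3 (6 and 1), Daam2 (1 and 21) and Notum (20 and 5). The log2 difference of Daam2 in ASC was 7.23 against mouse 1 alone and 4.20 against mouse 3 alone.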
